A study of Drosophila melanogaster with 6 samples.

Results

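The 6 genes described here encode proteins of the thick filament: Mhc, Mlc1, Mlc2, Prm, fln and Mf. They were taken by symbol from 17611 genes in the deposited count table, and all 6 were found. RNA-seq was performed on indirect flight muscles (IFMs) of Drosophila pupae at 72 hours after puparium formation (APF), raised at 25°C. In the control genotype, UAS-GFP, Act88F-Gal4 drove a green fluorescent protein, and in the other genotype, UAS-Antp, the same driver maintained the Hox protein Antennapedia. Both genotypes therefore carried the Gal4 driver, whose promoter comes from the flight muscle actin gene Act88F and which acts in flight muscle fibers after fusion. Each genotype had 3 samples, and each sample pooled the muscles of 6 to 8 pupae. The labels call the samples independent replicates, whereas the methods of the study state 1 biological replicate, so P values measure only the spread between these samples, which may be technical.

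In a striated muscle, the motor protein myosin II assembles into bipolar thick filaments that slide along thin filaments of actin. Each myosin molecule is a pair of heavy chains, whose heads each bind an essential and a regulatory light chain, and whose rods pack together to form the filament shaft. Insect thick filaments also hold paramyosin in their core, together with myofilin, and in the fibrillar IFM the rod-binding protein flightin. Fibrillar flight muscle and the tubular muscles of legs and jump muscle are built from the same classes of protein in different isoforms and proportions. The question put to the data was how the transcripts of these partners stood, singly and relative to each other, when Antp was maintained.

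Each sample gave between 47460809 and 77781458 counts, and the lowest count of any of the 6 genes in a sample was 28254. The UAS-GFP samples are given below as replicates 1, 2 and 3, and the UAS-Antp samples are named by their totals and listed in the order 69673609, 77781458 and 63217976, because the table and the labels number them differently. Antp itself had 70, 33 and 66 counts in the control samples and 716673, 1092524 and 517985 in those with UAS-Antp. All 4 genes of the flight muscle list (Act88F, TpnC4, Strn-Mlck and Mef2, the last a factor of muscle in general) were detected in every sample and were lower with UAS-Antp, whereas all 4 tubular muscle markers (Act79B, TpnC41C, TpnC73F and Mlp84B) were higher. Their summed level went from between 90834 and 104110 to between 3193 and 4144 counts per 1000000 (CPM) for the first list, and from between 92.7 and 124.7 to between 11905 and 14739 CPM for the second.

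Transcripts of the myosin motor and of flightin were lower with UAS-Antp, whereas those of paramyosin and myofilin were not called in either direction. By edgeR's quasi-likelihood test, Benjamini-Hochberg adjusted at a threshold of 0.001, Mhc, Mlc1, Mlc2 and fln were lower (4 of 6 genes) and 0 of 6 were higher, with 0 called higher by DESeq2 and 1 gene, Prm, higher at an unadjusted P under 0.05. At an adjusted threshold of 0.05, 5 of the 6 genes passed, 1 of them (Prm) higher, beside 5807 of all 9546 genes tested, 3123 of them higher. At the threshold of 0.001, 35.6% of all genes tested passed, 16.3% higher and 19.3% lower. The median log2 fold change of the 6 genes was -2.13, beside 0.17 for all genes tested. In bulk muscle, fewer cells of a type and less RNA per cell cannot be told apart. In scaled CPM, the samples of the genotypes did not overlap for 5 of the 6 genes, the exception being Mf, and 68.3% of all genes tested did not overlap.

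Mhc encodes the only heavy chain of muscle myosin in the fly, and its many isoforms come from alternative exons of this one gene. It lies on chromosome 2L (plus strand), between 16766566 and 16788766 of dm6, and is annotated with 21 transcripts of 17 to 19 exons. Mhc was at 119703, 103486 and 113062 CPM in the UAS-GFP samples and at 24091, 21188 and 23494 CPM in the UAS-Antp samples, after scaling by edgeR's TMM method. The samples of each genotype lay close together and far from those of the other. The mean was 112084 ± 8153 CPM in the control and 22924 ± 1533 CPM upon Antp maintenance (SD, n = 3), 4.89-fold lower. The log2 fold change was -2.29 (SE 0.13, 95% interval -2.58 to -2.00), with an adjusted P of 1.30e-07 in edgeR's quasi-likelihood test (Benjamini-Hochberg). Mhc nevertheless had the highest count of any gene in all 6 samples. Gene counts do not separate its isoforms, so exon choice was not measured here.

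Mlc1 encodes the essential light chain, which stabilizes the lever arm of the myosin head. The gene lies on chromosome 3R (minus strand), between 27657078 and 27660177, with 3 transcripts that share a single start site. It was at 19878, 17582 and 20847 CPM with UAS-GFP and at 3563, 3833 and 4176 CPM with UAS-Antp. Its means were 19436 ± 1677 and 3858 ± 307 CPM (SD, n = 3), and its log2 fold change was -2.33 (SE 0.13, interval -2.61 to -2.05, adjusted P = 9.53e-08 in the same test). The intervals of Mhc and Mlc1 cover nearly the same range.

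Mlc2 encodes the regulatory light chain, which is phosphorylated in flight muscle and is needed for stretch-activated power output. It lies on chromosome 3R (minus strand), between 30171438 and 30174551, as a single transcript of 3 exons. Its level was 72651, 78670 and 86384 CPM in the UAS-GFP samples and 23226, 17842 and 19798 CPM in the UAS-Antp samples. Means of 79235 ± 6884 and 20289 ± 2725 CPM (SD, n = 3) gave a log2 fold change of -1.97 (SE 0.14, interval -2.28 to -1.65), 3.91-fold lower, and edgeR's test gave an adjusted P of 9.04e-07. The order of the UAS-Antp samples differed between the light chains: the sample of 69673609 counts was lowest for Mlc1 and highest for Mlc2.

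fln encodes flightin, which binds the myosin rod, sets thick filament length and stiffness, and in the fly is known as a protein of the IFM. The gene lies on chromosome 3L (minus strand), between 19989551 and 19991220, with 2 transcripts. fln was at 32231, 25838 and 33336 CPM with UAS-GFP and at 2314, 2308 and 2090 CPM with UAS-Antp. It had the steepest fall of the 6 genes. The means were 30468 ± 4048 and 2237 ± 128 CPM (SD, n = 3), 13.6-fold lower with UAS-Antp, at a log2 fold change of -3.77 (SE 0.14, interval -4.09 to -3.44, adjusted P = 1.40e-08 in edgeR's quasi-likelihood test). Only 1.52% of all genes tested had a lower fold change. By count, fln ranked 5 to 7 among all genes with UAS-GFP and 26 to 29 with UAS-Antp. Its exons share bases with the antisense RNA gene asRNA:CR45161 on the opposite strand, which had 307 to 2669 counts and was counted apart from fln by strand.

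Prm encodes paramyosin, a rod protein of the filament core, and from a second start site within the gene the shorter miniparamyosin, which is also incorporated into the filament. It lies on chromosome 3L (minus strand), between 8732858 and 8745310, with 2 transcripts from the outer start (coding length 2637 bases) and 3 from the inner one (921 to 1920 bases). Prm was at 5044, 3949 and 4367 CPM with UAS-GFP and at 6264, 5926 and 6057 CPM with UAS-Antp. All UAS-Antp samples lay above all UAS-GFP samples, by a small margin. The means were 4453 ± 553 and 6082 ± 170.5 CPM (SD, n = 3). The log2 fold change was 0.45 (SE 0.12, interval 0.18 to 0.72), and its adjusted P of 0.00797 in edgeR's quasi-likelihood test did not pass 0.001. Over 13 alternatives its adjusted P ran from 7.61e-08 to 0.0485. The counts of the gene do not separate paramyosin from miniparamyosin.

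Mf encodes myofilin, a protein of the insect thick filament core. The gene lies on chromosome 3R (minus strand), between 15170625 and 15181510, with 17 transcripts. Its level was 1126, 884 and 1001 CPM with UAS-GFP and 844, 1048 and 1033 CPM with UAS-Antp, so that the samples of the genotypes were interleaved. The means were 1004 ± 121 and 975 ± 114 CPM (SD, n = 3). At a log2 fold change of -0.04 (SE 0.13, interval -0.33 to 0.25) and an adjusted P of 0.804 in edgeR's quasi-likelihood test, Mf was not called. The sign of this small value turned to 0.04 without UAS-GFP replicate 1 and to 0.05 without the UAS-Antp sample of 69673609 counts.

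**Figure D1:**
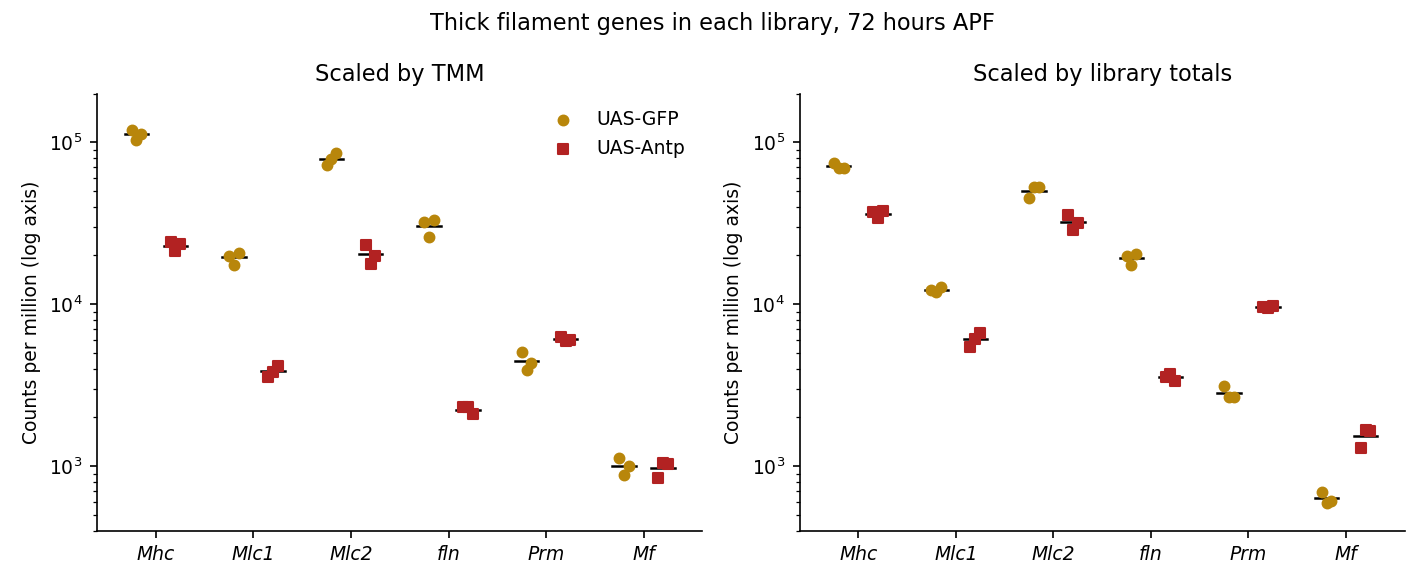
Level of each thick filament gene in each sample in CPM on a log axis, scaled by TMM (left) or by library totals (right), with points for samples and bars for means of 3. Mhc, Mlc1, Mlc2 and fln lie lower with UAS-Antp in both panels, whereas Prm and Mf lie clearly higher only where library totals were used.

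The level assigned to Prm and Mf depended on how the libraries were scaled. Without any scaling beyond the library total, Prm took 0.312%, 0.266% and 0.266% of the control counts and 0.961%, 0.950% and 0.969% with UAS-Antp. Mf took 0.0697%, 0.0595% and 0.0610% with UAS-GFP and 0.130%, 0.168% and 0.165% with UAS-Antp. The genotypes did not overlap for either gene on this scale, on which 4971 of all 9546 genes tested were called higher. The share of all genes that did not overlap on it was not counted. Prm moved from rank 44 to 52 among all genes by count to rank 8 to 10, and Mf from rank 201 to 248 to rank 72 to 104. The TMM factors differed widely between genotypes, at 0.609 to 0.674 with UAS-GFP and 1.53 to 1.60 with UAS-Antp, and the 6 genes themselves took 15.5% to 15.8% of all counts in the first and 8.36% to 9.25% in the second. For this share, means of 15.6% ± 0.148 and 8.89% ± 0.471 (SD, n = 3) gave P = 0.1 in a two-sided exact permutation test, the smallest that 3 samples against 3 allow. The 50 most abundant genes, among them 5 of the 6, took 49.4% of the control counts and 30.6% of those with UAS-Antp.

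With library totals as the scale, the log2 fold change of Prm was 1.77 (adjusted P = 7.61e-08) and that of Mf was 1.28 (adjusted P = 4.32e-06) in edgeR's quasi-likelihood test, and the median of all genes tested moved to 1.48. With 80 cytosolic ribosomal protein genes as the scale, the values were 1.53 for Prm and 1.04 for Mf, with a median of 1.25. This alternative was added after the data were seen. Its genes were those with a symbol of RpL or RpS followed by a digit, which leaves out some ribosomal protein genes, such as RpLP0. Among all genes called, 45.8% were higher with UAS-Antp under TMM, 84.1% under the ribosomal protein scale and 87.9% under totals. Under these last scales all 6 genes passed, 4 lower and 2 higher. Over all 9546 genes tested, 5656 passed under totals, 4971 of them higher. Under the ribosomal protein scale 5058 passed, 4253 of them higher. The fall of Mhc, Mlc1, Mlc2 and fln passed the threshold under all 6 scalings, at log2 fold changes of -2.36 to -0.97, -2.40 to -1.01, -2.03 to -0.65 and -3.84 to -2.44.

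A scaling shifts all genes by nearly the same amount, so changes read against the median gene hardly move with it, by construction. Relative to the median gene, the log2 change over the 6 scalings was -2.46 to -2.45 for Mhc, -2.50 to -2.49 for Mlc1, -2.14 to -2.13 for Mlc2 and -3.94 to -3.93 for fln. For Prm it was 0.28 to 0.29 and for Mf -0.21 to -0.20. Prm and Mf thus changed about as much as the median gene did, with 59.1% and 42.6% of all genes below them under TMM. Mhc and Mlc1 had 7.54% and 7.22% of genes below them.

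**Figure D2:**
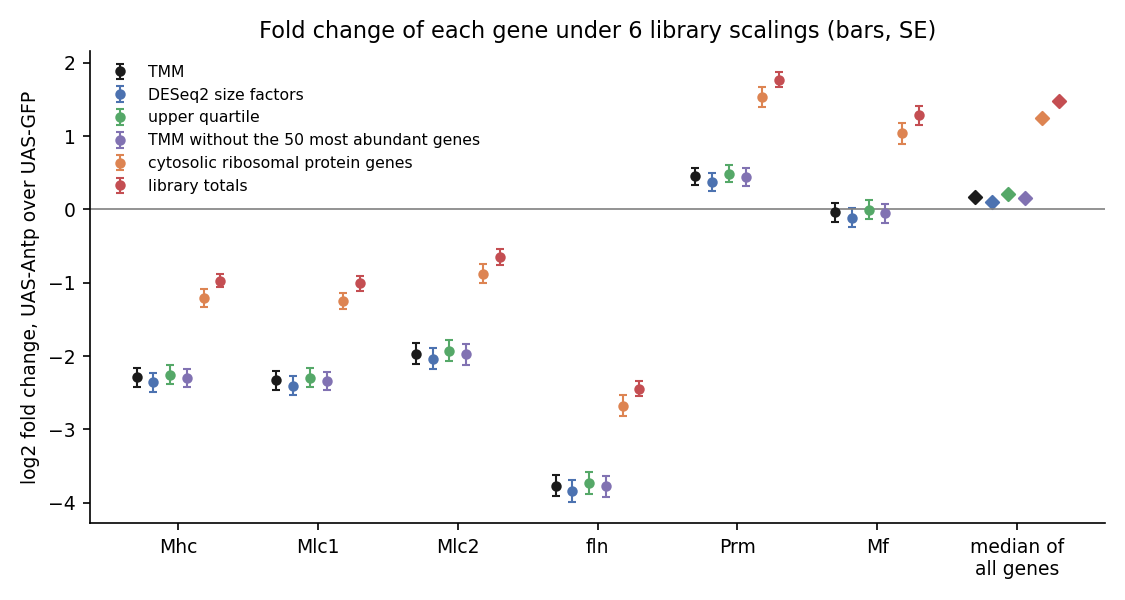
Fitted log2 fold change between the genotypes, UAS-Antp over UAS-GFP (y axis), for each gene under 6 ways of scaling the libraries (colors), with bars of 1 SE and the median of all genes tested as diamonds. All values shift upward together under ribosomal protein genes and library totals, where the median of all genes is 1.25 and 1.48, and there Prm and Mf lie above 1.

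A ratio of the counts of 2 genes within a library does not depend on the scaling, so the proportions of the filament partners were compared in this way. The myosin heavy and essential light chain transcripts kept nearly the same proportion, whereas flightin fell behind myosin, and paramyosin and myofilin gained on it. To test these ratios, each library was scaled by its Mhc count in place of TMM, and edgeR's quasi-likelihood test was run over the 9545 other genes.

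For each Mhc count, Mlc1 had 0.166, 0.170 and 0.184 counts in the control and 0.148, 0.181 and 0.178 with UAS-Antp. These ranges overlapped, and no other pair among the 15 pairs of genes did so. Over all genes tested, 89.1% did not overlap in their ratio to Mhc. The log2 change of the ratio was -0.04 (SE 0.11), with a 95% interval from -0.29 to 0.21 and an adjusted P of 0.746 in edgeR's test, so changes of the ratio beyond 0.820-fold and 1.16-fold lie outside the interval. The sign turned to 0.01 without UAS-GFP replicate 3 and to 0.05 without the UAS-Antp sample of 69673609 counts.

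Mlc2 had 0.607, 0.760 and 0.764 counts for each Mhc count with UAS-GFP and 0.964, 0.842 and 0.843 with UAS-Antp. The genotypes did not overlap, but the spread within each was large against the gap. The log2 change of 0.31 (SE 0.12, interval 0.05 to 0.58, adjusted P = 0.0273 in edgeR's test) did not pass 0.001. Against its light chain partner, Mlc2 was at 3.65, 4.47 and 4.14 counts for each Mlc1 count with UAS-GFP and at 6.52, 4.65 and 4.74 with UAS-Antp. The sample of 69673609 counts stood above the others, and without it the gap between the genotypes was narrow, between 4.47 and 4.65.

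For fln, 0.269, 0.250 and 0.295 counts for each Mhc count with UAS-GFP compared with 0.0960, 0.109 and 0.0889 with UAS-Antp. Flightin transcripts were thus lowered beyond the fall of myosin itself. The log2 change of the ratio was -1.47 (SE 0.12, interval -1.73 to -1.21), 2.77-fold lower, with an adjusted P of 3.67e-07 in edgeR's quasi-likelihood test (Benjamini-Hochberg). A fall relative to Mhc was uncommon, called in 1.7% of the genes tested. Mhc was itself among the more lowered genes, with 7.54% of genes below it under TMM, which limits how many can fall against it.

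For Prm, the ratio to Mhc was 0.0421, 0.0382 and 0.0386 with UAS-GFP and 0.260, 0.280 and 0.258 with UAS-Antp. For Mf, it was 0.00941, 0.00854 and 0.00885 with UAS-GFP and 0.0350, 0.0495 and 0.0440 with UAS-Antp. Both genes of core proteins therefore had more counts for each Mhc count in every UAS-Antp sample than in any UAS-GFP sample. The log2 change was 2.75 for Prm (SE 0.11, 6.71-fold, adjusted P = 2.12e-09) and 2.26 for Mf (SE 0.14, 4.79-fold, adjusted P = 5.20e-08) in edgeR's quasi-likelihood test. In this test, 3 of the 5 genes passed, beside 72.7% of all genes tested, and a rise relative to Mhc was called in 71% of them, with a median log2 change of 2.45. The groups did not overlap in 89.1% of genes. The gains of Prm and Mf on Mhc were therefore of the size seen for the median gene and are not particular to them, with 59.4% and 43.1% of genes below them.

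The largest changes of proportion were those of flightin against the core proteins. For each Prm count, fln had 6.39, 6.54 and 7.63 counts in the control and 0.369, 0.389 and 0.345 with UAS-Antp. The order of flightin and paramyosin by count was thus inverted, by an 18.6-fold change of the ratio (log2 change -4.22, SE 0.10). For Mf against fln, the change was 13.2-fold in the other direction (log2 change 3.72, SE 0.15). Mf against Prm was at 0.223, 0.224 and 0.229 with UAS-GFP and 0.135, 0.177 and 0.171 with UAS-Antp, so that the core proteins did not move quite together (log2 change -0.50, SE 0.12). In the 15 pairs, 14 did not overlap between genotypes, and 11 changed by more than 1 on the log2 scale. Such separation was common for ratios to Mhc, in which 89.1% of all genes tested did not overlap. No such share was counted for the pairs without Mhc. Each of these 14 had P = 0.1 in a two-sided exact permutation test, the smallest possible here, and 0.107 after Benjamini-Hochberg adjustment over the 15 pairs. The 15 ratios rest on 6 genes and are not independent of each other.

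Levels of different genes were compared per kilobase of exon sequence, taken over all exons of a gene. On this scale Mlc2 was the most abundant of the 6 in both genotypes. Relative to Mhc, the level per length of Mlc2 was 2.81 ± 0.355 with UAS-GFP and 3.50 ± 0.278 with UAS-Antp (SD, n = 3). Mlc1 stood at 1.11 ± 0.0619 and 1.08 ± 0.117 (SD, n = 3), near an equal level of heavy chain and essential light chain transcript. fln passed from above the level of Mhc, at 1.89 ± 0.158, to below it, at 0.683 ± 0.0705 (SD, n = 3). Prm went from 0.0670 ± 0.00368 to 0.450 ± 0.0204 and Mf from 0.0153 ± 0.000749 to 0.0733 ± 0.0125 (SD, n = 3). These levels depend on the length used. The change between genotypes does not, because each gene was given the same length in both genotypes. A shift between transcripts of different length was not measured and would alter it. With coding lengths, Mlc1 stood at 2.20 and 2.14 and fln at 2.92 and 1.06 in UAS-GFP and UAS-Antp, so that neither the near equality of Mlc1 and Mhc nor the fall of fln below Mhc held on that length. These values describe RNA and not protein.

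**Figure D3:**
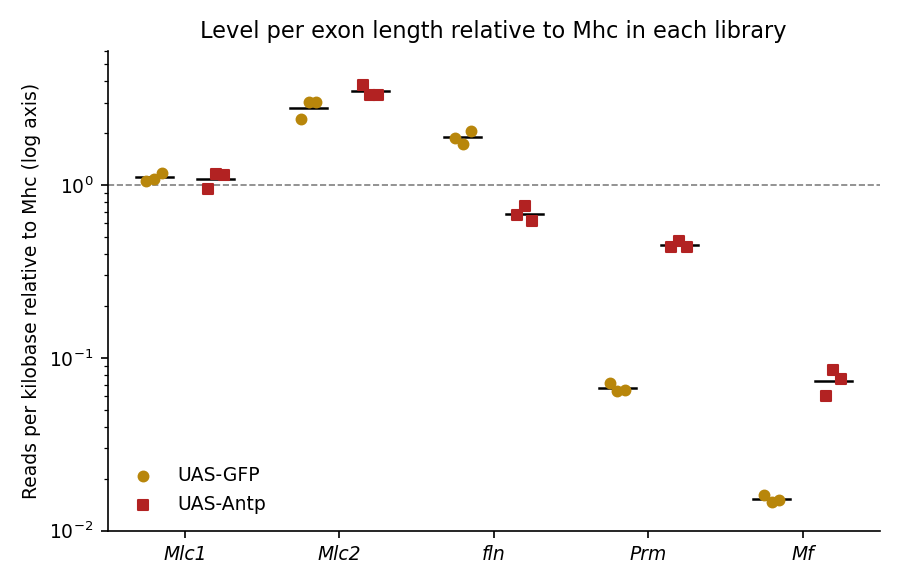
Reads per kilobase of exon relative to Mhc (y axis, log scale) for the 5 other genes in each sample, with points for samples and bars for means of 3. Mlc1 stays near the dashed line at 1 in both genotypes, fln crosses it from 1.89 to 0.683, and Prm and Mf rise toward it without reaching it.

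Taken as parts of a whole, the transcripts of the 6 genes had another make-up with UAS-Antp. Of their summed level per length, Mhc held 15.5%, 14.5% and 13.6% with UAS-GFP and 14.4%, 14.7% and 15.1% with UAS-Antp. Mlc1 held 16.1% ± 0.406 and 16.0% ± 2.00 (SD, n = 3). The parts of the heavy chain and the essential light chain thus overlapped between genotypes. The part of fln was 29.2%, 25.1% and 28.0% with UAS-GFP and 9.65%, 11.1% and 9.38% with UAS-Antp. Mlc2 took a larger part, from 40.7% ± 3.10 to 51.5% ± 3.17, as did Prm, from 0.977% ± 0.116 to 6.63% ± 0.303, and Mf, from 0.222% ± 0.0241 to 1.08% ± 0.195 (SD, n = 3). For fln, Mlc2, Prm and Mf, the samples did not overlap, with P = 0.1 in a two-sided exact permutation test. Parts of a whole are linked, so these changes are not independent of each other.

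**Figure D4:**
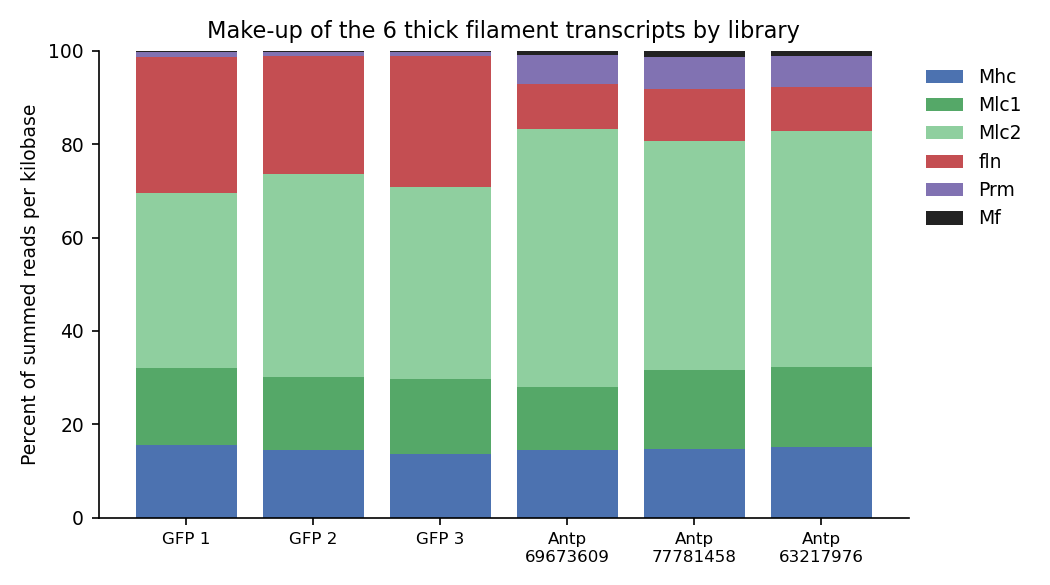
Percent of the summed reads per kilobase of exon (y axis) held by each of the 6 genes in each sample, UAS-Antp samples being named by total counts. The part of fln falls from between 25.1% and 29.2% to between 9.38% and 11.1%, while that of Mhc stays between 13.6% and 15.5%.

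Among genes with a mean count of at least 10000, 840 candidates were ranked by how steady their count ratio to a member was over the 6 samples, as the SD of the log2 ratio. Nearest to Mhc were CG13850 (SD 0.052), CG11760 (0.074), Ald1 (0.075), ND-MWFE (0.078) and E2f1 (0.080). For its light chains, which were not among the candidates, the SD was 0.12 for Mlc1 and 0.22 for Mlc2. Nearest to fln were mfrn (0.14), FBgn0010482 (0.14) and FeCH (0.19), and nearest to Prm were hts (0.049), sima (0.059) and lig (0.075). The measure covers 6 samples of 2 genotypes and so mainly finds genes with a like fold change.

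The partners of the thick filament in the sarcomere were read beside it. Of the 4 giant proteins of the A band and connecting filament, all 4 were lower with UAS-Antp in edgeR's quasi-likelihood test, beside 19.3% of all genes tested, with a median log2 fold change of -2.26. The log2 fold change was -3.39 (SE 0.18) for Strn-Mlck and -2.71 (SE 0.13) for Unc-89, the M-line protein obscurin. It was -1.80 (SE 0.16) for bt, the myosin-binding projectin, and -1.74 (SE 0.16) for sls, a titin-like protein of the Z disc and connecting filament. Under library totals, bt and sls stood at -0.49 and -0.43 and no longer passed. Relative to Mhc, only Strn-Mlck of the 4 was called, at a log2 change of -1.09 (SE 0.15), a fall called in 1.7% of all genes. For bt, sls and Unc-89 the change relative to Mhc was 0.48, 0.55 and -0.42.

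All 6 thin filament partners were lower as well, beside the same 19.3%, at a median log2 fold change of -2.57. Relative to Mhc, Act88F, the flight muscle actin, fell by 3.46 on the log2 scale and TpnC4, the stretch-sensitive troponin C, fell by 1.07. These were the only falls called against Mhc in this list, 2 of 6, beside 1.7% of all genes tested. Tm2, a tropomyosin, rose by 1.01 relative to Mhc, as 71% of all genes did, although its own log2 fold change was -1.27 under TMM and 0.05 under totals. For Tm1, up (troponin T) and wupA (troponin I), the changes relative to Mhc were -0.19, 0.14 and -0.37 and were not called. The change of fln relative to Mhc, -1.47, lay between those of Act88F and TpnC4.

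In the list of myosin chaperones and assembly factors, genes were called in both directions under TMM, the only higher one being a ubiquitin ligase. Of 6 genes, 3 were lower and 1 was higher, beside 19.3% and 16.3% of all genes tested, with a median log2 fold change of -0.91. The 3 lower genes were unc-45, the dedicated myosin chaperone (-1.43, SE 0.10), Hsp83, the fly Hsp90 (-1.81, SE 0.17), and tn, a ubiquitin ligase needed for myofibril integrity (-1.84, SE 0.11). STUB1, a chaperone-associated ubiquitin ligase also known as CHIP, was higher (1.78, SE 0.13), at 500, 372 and 516 counts in the control and 5067, 5297 and 4262 with UAS-Antp. Hsc70-4 and DnaJ-1, a chaperone and its cochaperone, were at -0.38 and 0.93 and were not called by edgeR. DESeq2 at the same threshold called all 6 genes, 2 of them higher, beside 4264 genes in all, 1967 of them higher. Under library totals the split was 1 lower, tn, and 3 higher, STUB1, Hsc70-4 and DnaJ-1, with unc-45 at -0.11. On that scale 5656 of all 9546 genes were called, 4971 of them higher. For each Mhc count, unc-45 was higher with UAS-Antp (log2 change 0.86, SE 0.11), by less than the median gene.

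Myosins outside the muscle thick filament were also called in both directions. Of 12 other myosin heavy chain genes, 10 were tested, of which 4 were higher and 3 lower, beside 16.3% and 19.3% of all genes, with a median log2 fold change of 0.67. Higher were zip, the nonmuscle myosin II heavy chain (1.83, SE 0.13), didum, a class V transport myosin (1.03, SE 0.14), and the class I myosins Myo31DF (1.15, SE 0.18) and Myo61F (3.60, SE 0.17). Lower were Mhcl (-1.38, SE 0.10), ck, a class VII myosin (-2.31, SE 0.13), and Myo10A (-2.94, SE 0.17). DESeq2 at the same threshold called 8 of the heavy chains, 5 of them higher, beside 4264 genes in all, 1967 of them higher. The light chains of nonmuscle myosin were sqh, higher at 0.79 (SE 0.11), and Mlc-c, not called at -0.02 (SE 0.15). Under library totals, 6 of the heavy chains were higher and 2 lower, beside 5656 of all 9546 genes called, 4971 of them higher. On that scale Mhcl was at -0.07, and both light chains were higher, Mlc-c at 1.29. Summed over the 12 genes, the level was 1285 to 1447 CPM with UAS-GFP and 1021 to 1160 CPM with UAS-Antp, far below that of Mhc in every sample.

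**Figure D5:**
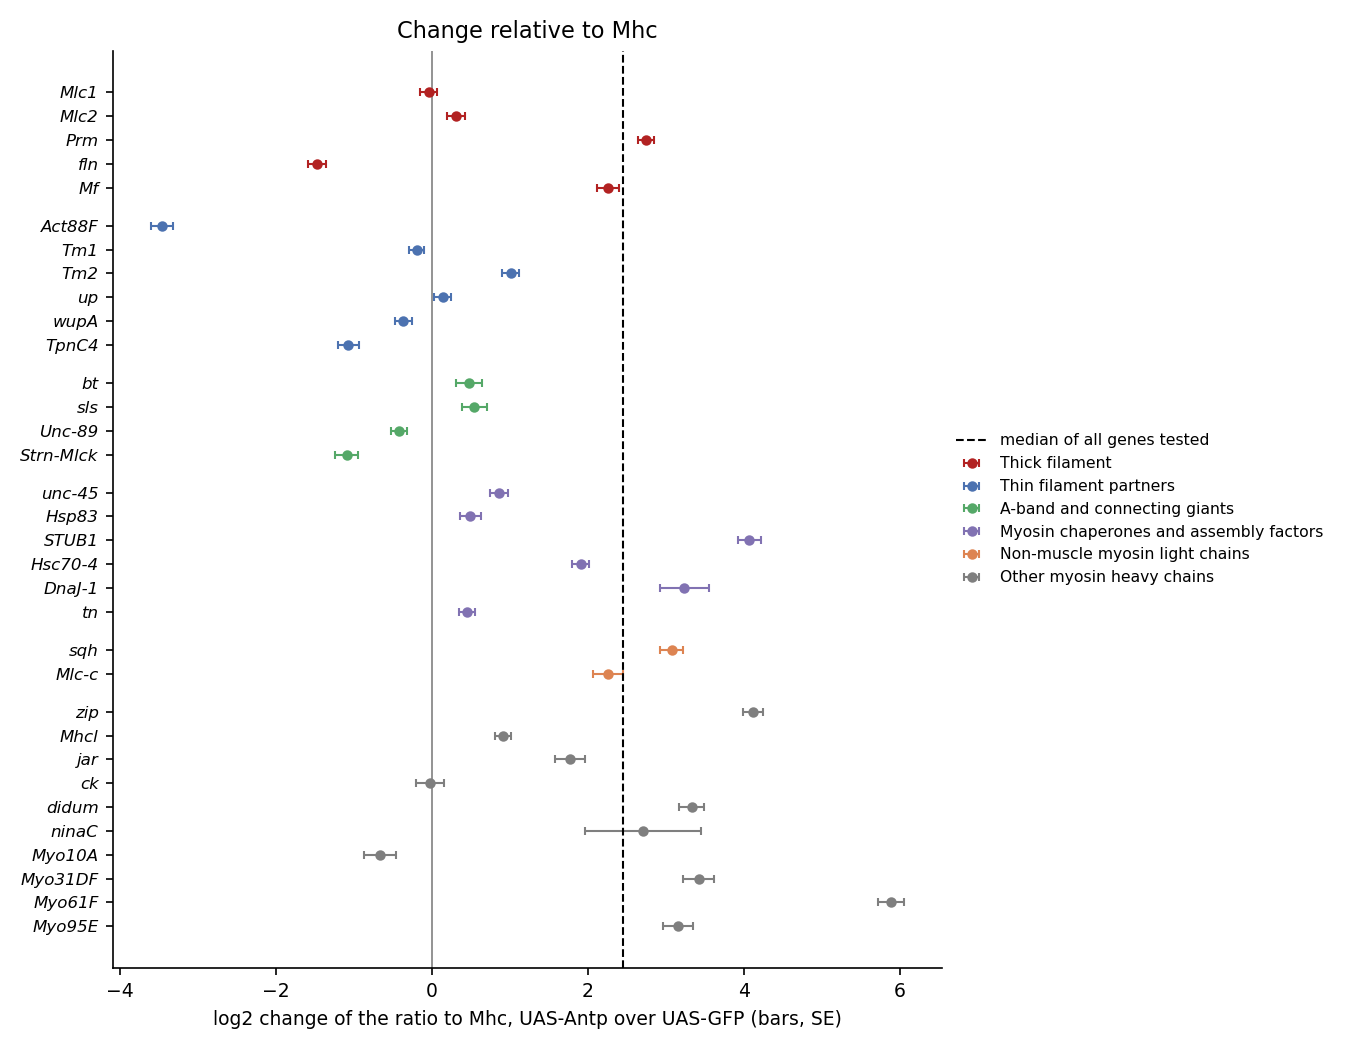
Log2 change of the count ratio to Mhc, UAS-Antp over UAS-GFP (x axis), for the thick filament genes and the related lists, with bars of 1 SE and a dashed line at the median of all genes tested, 2.45. Mlc1 and Mlc2 lie near 0 together with Tm1, up and wupA of the thin filament, fln lies at -1.47, and Prm and Mf lie near the dashed line.

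Markers of other cell types were examined beside these changes. Of 4 neuron, 4 hemocyte, 3 fat body and 1 tendon markers, 0 passed 0.001 in edgeR's quasi-likelihood test, whereas 5 of the 12 had an unadjusted P under 0.05 and DESeq2 called 1. Under library totals, 2 of 4 neuron, 2 of 4 hemocyte, 3 of 3 fat body and 0 of 1 tendon markers were called higher, beside 4971 of all 9546 genes. Relative to Mhc, 4, 3, 3 and 1 of them were called higher, beside 71% of all genes. Their summed levels ran from 46.0 to 53.5 CPM with UAS-GFP and 45.8 to 71.8 CPM with UAS-Antp for neurons, from 26.5 to 27.7 and 21.9 to 44.0 CPM for hemocytes, from 190.02 to 345.5 and 280.8 to 429.8 CPM for fat body and from 7.01 to 10.1 and 5.17 to 5.87 CPM for tendon. Of 3 trachea markers, btl and trh were lower under TMM, with means of 95.4 and 20.1 CPM with UAS-GFP and 33.0 and 7.24 CPM with UAS-Antp. The sum of all 3, most of it Gasp (means 349.6 and 401.5 CPM), was 403.1 to 511.9 and 405.8 to 464.5 CPM. Under library totals btl and trh were not called, at -0.21 and -0.15, and Gasp was higher, at 1.52. Of 4 testis markers, aly and can were at 0 in all samples, and tomb had 0 counts in each UAS-GFP sample and 800, 687 and 789 with UAS-Antp. The fourth, vis, had 16, 10 and 8 counts with UAS-GFP and 106, 117 and 97 with UAS-Antp. Its log2 fold change of 1.62 was not called under TMM, and under library totals it was called higher, at 2.93. The part of other cell types in the changes of the thick filament genes was not tested.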

How the data were processed

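RNA-seq of polyA RNA from IFMs at 72 hours APF, in 3 samples of each genotype, was analysed. The authors deposited raw counts of uniquely mapping reads on the exons of 17611 genes (dm6, FlyBase release 6.42), by strand and without normalization. The submitters' processing notes name bcl2fastq, Subread, featureCounts and DESeq2 (1.34). The comparison table that the authors deposited with it, with fold changes and P values, was used for gene symbols only. Between 75.0% and 81.0% of counts from 5 to 50 were even numbers, so both mates of a pair appear to have been counted. Intervals cover counting error and the spread between samples, not differences between crosses.

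Counts were filtered with filterByExpr (9546 genes kept), scaled by TMM and tested with the quasi-likelihood test of edgeR 4.0.16 (R 4.3.3, limma 3.58.1) at a threshold of 0.001, Benjamini-Hochberg adjusted over all tested genes. The SE of a fitted log2 fold change was derived from it and its F statistic. For ratios of pairs without Mhc, the SE came from the variance of the samples' log2 ratios within each genotype. Ratios to Mhc were tested in a fit scaled by the Mhc count. CPM are per 1000000. Lengths, exons and transcripts came from Ensembl release 115, whose coordinates equal those of the count table for all 6 genes. The code was tested on simulated data. Alternatives were DESeq2 1.42.0, other scalings, no filter, a threshold of 0.05, other lengths and leaving out each sample. The genes and lists were chosen with earlier results of these data known, and no set test was run. Named genes were the 6 genes, the listed partners (other myosin heavy chains only where called), and the 5, 3 and 3 genes most like Mhc, fln and Prm.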

Additional observations from a re-analysis of the deposited data

How the results depend on the processing

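No paired analysis was possible because the labels give the genotypes different replicate numbers. The falls of Mhc, Mlc1, Mlc2 and fln passed in all 13 alternatives, as did the ratio changes of Prm, fln and Mf to Mhc in all 8. With library totals, 5656 genes were called (4971 higher), Prm was at 1.77 and Mf at 1.28 on the log2 scale, and 2 giants and 2 light chains of the related lists were called. With ribosomal protein genes, added after the data were seen, 5058 genes were called (4253 higher). Prm was then at 1.53 and Mf at 1.04, again with 2 giants and 2 light chains called. At a threshold of 0.05, 5807 genes were called (3123 higher). Leaving out 1 sample gave 2758 to 3043 genes called, and log2 fold changes of -2.37 to -2.23 for Mhc, -2.43 to -2.28 for Mlc1, -2.07 to -1.88 for Mlc2, -3.90 to -3.71 for fln, 0.34 to 0.54 for Prm and -0.15 to 0.05 for Mf. The log2 ratio changes to Mhc ranged from -0.091 to 0.048 for Mlc1, including 0.0075 without UAS-GFP replicate 3, from 0.21 to 0.37 for Mlc2, 2.71 to 2.79 for Prm, -1.55 to -1.40 for fln and 2.14 to 2.39 for Mf. Mf was at 0.040 without UAS-GFP replicate 1 and 0.051 without the UAS-Antp sample of 69673609 counts, where Mlc1 to Mhc was at 0.048.

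Levels per length relative to Mhc depend on the length. With the longest transcript they were, for UAS-GFP and UAS-Antp, 0.900 and 0.877 for Mlc1, 2.28 and 2.84 for Mlc2, 0.0795 and 0.533 for Prm, 1.62 and 0.586 for fln, and 0.0232 and 0.111 for Mf. With the longest coding length they were 2.20 and 2.14, 6.28 and 7.80, 0.0885 and 0.593, 2.92 and 1.06, and 0.0480 and 0.230 in the same order. All of these genes except Mlc2 have several transcripts and so no single length, and these levels hold only for the length named.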
